A study of Mus musculus with 8 samples.

Results

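In 1172 of the 204362 mouse introns listed in every library, reads were counted across the 5′ exon-intron boundary and few across the 3′ boundary. Most of them, 814, had little read depth behind the 5′ boundary (under 0.2 per boundary read, as defined below). For these 814, the counts alone do not show that RNA continued into the intron. All 1172 introns were chosen from the reads themselves. An intron had to be listed without a warning in all 8 libraries and be over 100 and under 20000 bases long, which 149562 introns were. Summed over the 6 libraries without the knockout, at least 100 reads had to cross the 5′ exon-intron boundary, and the reads across the 3′ boundary could number at most 10% of these. The 1172 introns lie in 848 genes and have 1141 distinct 5′ splice sites, so some share their 5′ reads. 203 genes hold more than 1 of them, and Prpf8 (the core protein of the catalytic spliceosome) holds the most, 6. The summed counts that chose these introns are given as a description, without a test. The tests further on concern differences between groups, which the rule did not use directly. Its cap on 3′ reads can still bear on them, as stated there.

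Polyadenylated RNA of mouse bone marrow cells was sequenced as strand-specific read pairs of 100 bp in 8 libraries of 5 groups, in a study of intron retention in monocyte differentiation. MDP (in this field the monocyte-dendritic cell progenitor) and Ly6Clo monocytes have 1 library each. The cMoP (cMOP in the labels, the common monocyte progenitor) and Ly6Chi monocytes have 2 each, and 2 further Ly6Chi libraries carry a knockout of Upf2 and are called the knockout below. MDP, cMoP, Ly6Chi and Ly6Clo carry a wild-type genotype tag and are marked untreated. The descriptions of cMoP and Ly6Chi add FL_FL, a floxed genotype, and those of MDP and Ly6Clo do not. No label names the driver of the knockout, the age of the animals, or whether the replicates are different animals. A p-value here therefore reflects the spread among these libraries alone, and that spread may be technical. Source names give bone marrow and the growth protocol primary cells, whereas a further tag speaks of a monocytic cell line. The bone marrow source is followed here.

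An intron starts at its 5′ splice site, which U1 snRNP and its partners recognise, and ends at a 3′ splice site that the U2 machinery recognises. A transcript can enter the intron without spanning it in a few known ways. It can use another 5′ splice site further downstream, so that the exon is longer, or it can be cleaved and polyadenylated inside the intron, so that the intron's start becomes part of a last exon. Upf2 is a core factor of nonsense-mediated decay, which degrades many transcripts whose splicing leaves a premature stop codon.

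The sequences below show what lies across the 5′ boundary in members of these kinds, read from GENCODE M21 transcripts (GRCm38, the same as mm10) that continue into the intron. The last 15 exon bases are in lower case and the intron bases in capitals. The first 6 are introns whose next annotated 5′ splice site lies a short way downstream.
Rpl26, chr11:68902422-68902442, plus strand: cggaaggatgacgaaGTTCAG
Clta, chr4:44012988-44013008, plus strand: gcgagccgccgggagGTCCGG
Srsf5, chr12:80945654-80945683, plus strand: caaagaccctgtccgGTAGGTGAGTGGCAC
U2af2, chr7:5075213-5075239, plus strand: aagaatgccacgctgGTGAGCCTCCCG
Fubp1, chr3:152226194-152226217, plus strand: aaacgaacggacaagGTAACTACG
Kit, chr5:75639132-75639158, plus strand: actttgcatttaaagGTAACAACAAAG
In Rpl26, Clta, U2af2, Fubp1 and Kit the capitals are all the bases between the listed and the next annotated 5′ splice site.

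The next 5 are introns in which an annotated transcript ends that is protein-coding or marked for nonsense-mediated decay. Reads were also spliced from each of these 5′ splice sites.
Zfp207, chr11:80395861-80395890, plus strand: ccaccttaaataaagGCAAGTTCTGTAAGA
Ifnar2, chr16:91393899-91393928, plus strand: ctggccaggaatcagGTATGGCTAGGTTTT
Plin2, chr4:86657099-86657128, minus strand: cctctcaactggctgGTAGGTCCCTTTTAT
Zc3hav1, chr6:38316306-38316335, minus strand: gagaagaggtccagaGTAAGTGTTCAGCAG
Tor1aip2, chr1:156051609-156051638, plus strand: tgatctgtgttgctaGTAAGTGACTGACAG
Of 451 member sites that a GENCODE M21 transcript reads across, 425 (94.2%) begin with GT and 17 (3.77%), such as Zfp207, with GC.

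In 4 such introns, chosen to show the other end of these transcripts, the one that ends inside carries the AATAAA poly(A) signal near its end, shown in capitals.
Zfp207, chr11:80396214-80396243, plus strand: agatgtccacgtAATAAAactcagttacca
Ifnar2, chr16:91394004-91394033, plus strand: tgtactcctgccAATAAAtgcacaccactg
Ppp2r5c, chr12:110571656-110571685, plus strand: tctttgtcatttAATAAAaacaatatatga
Mkrn1, chr6:39405551-39405580, minus strand: attttgaactacAATAAAatgaattcttgt
Between the signal's last base and the annotated end lie 17, 19, 15 and 24 bases in Zfp207, Ifnar2, Ppp2r5c and Mkrn1. The hexamers AATAAA or ATTAAA, searched on the transcribed strand only, stand in the last 50 bases of 96 of 131 (73.3%) complete coding or decay-targeted transcripts that end in a member intron. Among all 55210 such transcripts of GENCODE M21 the share is 57.2%. Transcripts of other types that end in a member intron have a hexamer in 42 of 181 (23.2%), beside 18.8% of all transcripts of those types. A match describes these letters and not a site in use.

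The name 5′ only holds for the transcripts, but the reads also lean to one side of the genome. Of the 1172 introns 1089 (92.9%, Wilson 95% interval 91.3 to 94.3) belong to genes on the plus strand, whose 5′ boundary is the left one, and 83 to genes on the minus strand. Among all 149562 introns of that length without a warning, 50.3% are on the plus strand. The mirrored rule, reads at the 3′ boundary only, took 1789 introns, 1599 on the minus strand and 190 on the plus strand, so that its reads lay at the left boundary too. In every library more boundary reads fell on the left than on the right, from 61.4% in Ly6Clo to 70.8% in cMoP replicate 2. Left boundary reads exceeded the read depth of the adjoining 50 intron bases 1.71-fold on the plus strand and 1.83-fold on the minus strand, while right boundary reads exceeded it 1.06-fold and 1.05-fold. How the program that counted these reads treats left and right boundaries was not tested. For minus-strand members this excess on the left lies at the 3′ boundary and works against the rule.

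**Figure D1:**
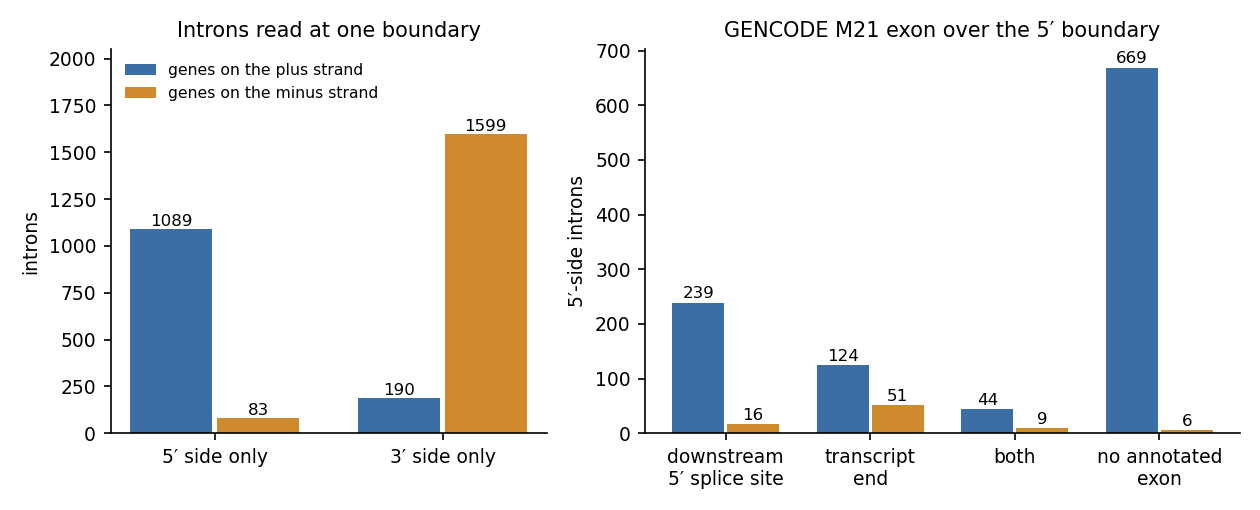
Left, number of introns read at 1 boundary only, by the rule (5′ side only) and by its mirrored form (3′ side only), for genes on the plus and minus strand. Right, number of 5′-side introns by the GENCODE M21 exon that crosses their 5′ boundary, without the 14 introns that lie wholly inside an exon. The 5′-side introns are mostly on the plus strand (1089 against 83) and the 3′-side introns on the minus strand (1599 against 190), and 669 of the 675 introns without an annotated exon are on the plus strand.

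By annotation the introns fall into 3 main kinds. In 308 an annotated exon crosses the listed 5′ boundary and ends at a 5′ splice site further downstream, and in 228 a transcript ends inside the intron, with 53 introns in both groups. A further 14 lie wholly inside a longer exon, and in 675 no annotated exon crosses the boundary. Together 483 of 1172 (41.2%) have a downstream site or a transcript end, beside 23.7% of the 6326 other introns with at least 100 5′ reads and 9.11% of the 1789 introns read only at the 3′ boundary. A downstream 5′ splice site in particular was annotated in 26.3% of the members and 5.83% of those 6326 other introns. A transcript end was about as frequent in both with the strands pooled, 19.5% of the members and 19.4% of the other introns. The strands differed: on the minus strand it was annotated in 72.3% of the members and 21.4% of the other introns. On the plus strand these shares were 15.4% and 18.1%. On the minus strand 76 of 83 (91.6%) have either annotation, and on the plus strand 407 of 1089 (37.4%). These shares are counts over all members and have no test. The genome place of the introns is mostly coding (982), with 82 in 5′ untranslated regions, 14 in 3′ untranslated regions and 91 in noncoding transcripts. First introns of their transcript number 146 of 1169 (12.5%), beside 7.70% of the other introns with at least 100 5′ reads. An exon of a gene on the opposite strand crosses the boundary in 2 members.

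The kinds differ in how much RNA stands behind the boundary. The depth share used here is the read depth of the first 50 intron bases divided by the reads across the 5′ boundary, both summed over the 6 libraries. Where reads run on into the intron it lies near 1, and its median was 0.939 in the 6326 other introns. Among the 1172 members the median was 0.0519, and the values split into 2 groups with few between them. It was under 0.2 in 814 and at least 0.5 in 318, limits chosen after the values were seen. Of the 83 minus-strand members 75 stood at 0.5 or more, and their median was 0.981.

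**Figure D2:**
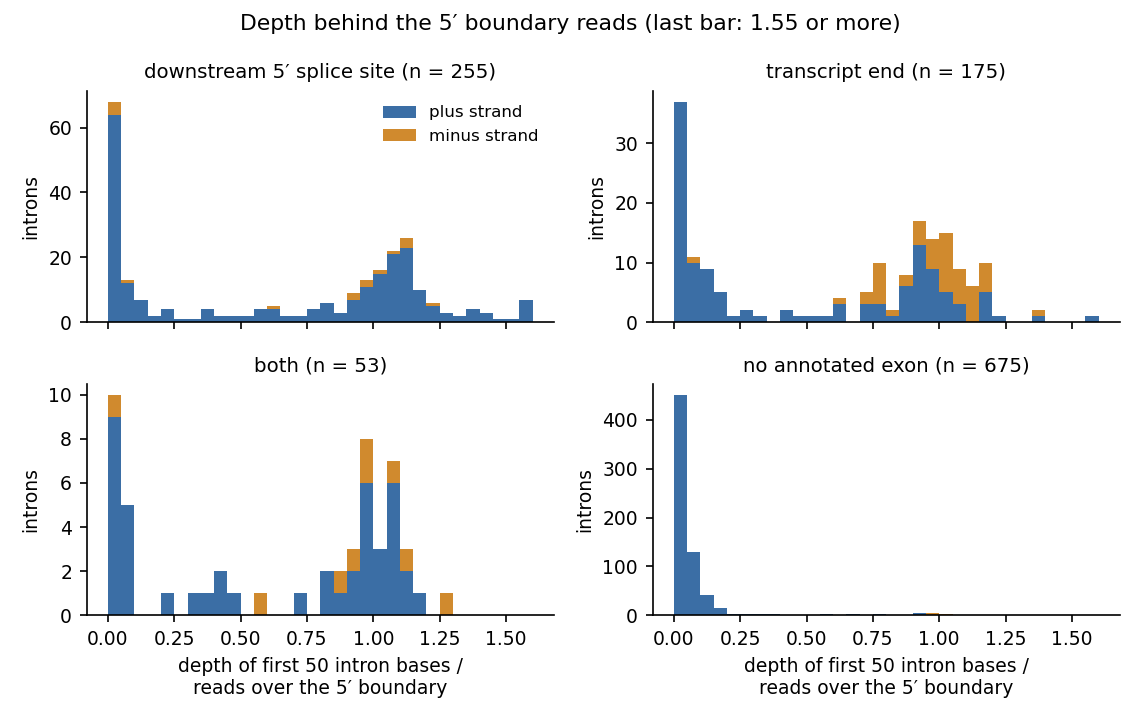
Number of introns (vertical axis) by depth share, the depth of the first 50 intron bases per read across the 5′ boundary (horizontal axis), in 4 annotation groups, with minus-strand genes stacked on plus-strand genes. Introns with a downstream 5′ splice site or a transcript end form 1 peak near 0 and another near 1, while those without an annotated exon sit almost wholly near 0 (637 of 675 under 0.2).

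Introns with an annotated downstream 5′ splice site carried the most reads. Rpl26 (ENSMUSG00000060938, chr11:68902437-68903178, coding, intron 2 of 3), a protein of the large ribosomal subunit, alone held 12.7% of the 5′ reads of all members. Its 5′ boundary was crossed by 16810 reads in MDP, 22996 and 24945 in the cMoP pair, 11055 and 13370 in the Ly6Chi pair, 11310 in Ly6Clo, and 19268 and 14269 in the knockout pair. Every library is high, and cMoP lies above Ly6Chi without overlap. These counts are not scaled for library depth or gene level, and Rpl26 itself was higher in cMoP (3679 and 3719 TPM) than in Ly6Chi (2422 and 2568). Over the 6 libraries 7 reads were spliced from the listed 5′ site, whereas 105637 were spliced into its 3′ site, and the annotated site 6 bases downstream is the one shown above. The listed Rpl26 intron is thus an annotated form that was hardly used.

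The 5′ share is the percentage of reads at the listed 5′ splice site that cross into the intron and are not spliced from it, that is 100 × boundary reads / (boundary reads + spliced reads). It was between 99.99% and 100% in every library for Rpl26. In Clta (chr4:44013003-44018812), the clathrin light chain A gene, whose next site also lies 6 bases on, it was 93.8% in MDP, 95.2% and 94.4% in the cMoP pair, 94.0% and 94.4% in the Ly6Chi pair, 94.5% in Ly6Clo, and 95.3% and 95.1% in the knockout pair. Both knockout libraries of Clta lie above both Ly6Chi libraries. Other members with many reads and a downstream site were Ssr2 (a subunit of the translocon-associated complex, 9973 reads over the 6 libraries), Uqcrc1 (a core protein of respiratory complex III, 9880 reads and 0 spliced from the listed site) and Fmnl1 (a formin that builds actin filaments, 9534 reads and a site 30 bases on). Fkbp1a, the FKBP12 prolyl isomerase, had 7380 reads and a site 4 bases on. Of the 255 introns with a downstream site alone 210 had a 5′ share over 50%, and 152 over 90%.

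For 342 members GENCODE M21 holds a downstream 5′ splice site joined to the same 3′ site, and the distance could be set against the depth. With a distance of 1 to 10 bases (47 introns) the median depth share was 0.0232, and with 11 to 30 bases (58 introns) 0.0555. With 31 to 60 bases (55 introns) it was 0.986 and with more than 60 bases (182 introns) 1.01. The depth is taken over 50 intron bases, and a shorter extension fills only part of them. A low depth share at short distances therefore follows from the measure and is no separate result. The listed site gave a median of 4.75% of the reads spliced into the shared 3′ site, and under 50% in 271 of the 342. Among 157 such sites within 60 bases, the most frequent distances were 6 bases (13 sites), 12 (10) and 9 (9). The distance was a multiple of 3 in 85 (54.1%), and in 67 of the 98 coding ones (68.4%), distances that keep the reading frame.

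**Figure D3:**
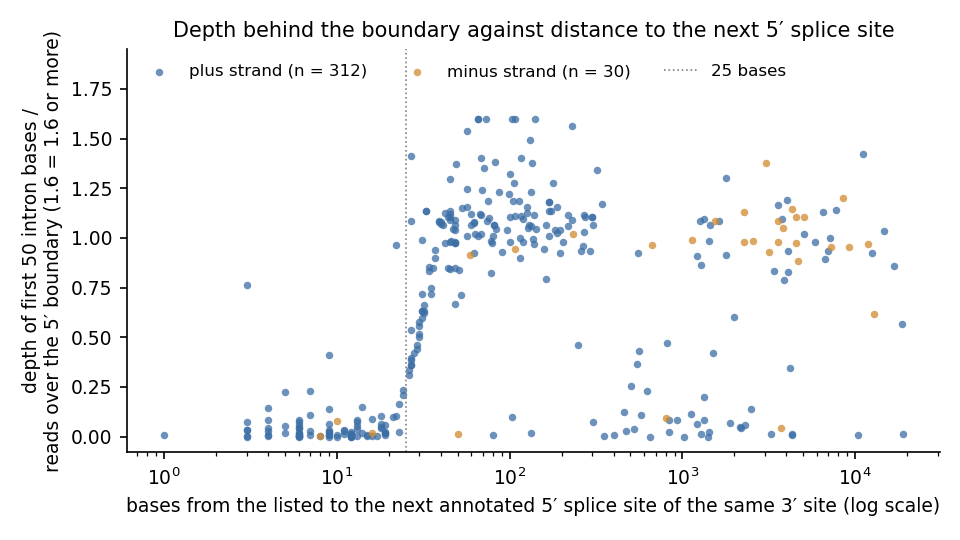
Depth share (vertical axis, values of 1.6 or more drawn at 1.6) against the distance in bases from the listed to the next annotated 5′ splice site of the same 3′ site (horizontal axis, log scale), 1 point per intron, for 312 plus-strand and 30 minus-strand members. Nearly all points left of the dotted line at 25 bases lie near 0, and beyond it most lie near 1 (medians 0.986 and 1.01), with a second group near 0 at the longest distances. The depth is taken over 50 bases, so low values at short distances follow from the measure.

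In some genes the listed and the downstream site were both in use, at a ratio that moved little between libraries. They were picked after their values were seen. In Srsf5 (chr12:80945669-80946575, 5′ untranslated, intron 1), an SR protein that itself regulates splicing, the next site lies 4 bases on and the 5′ share was 79.1% in MDP, 79.3% and 80.4% in the cMoP pair, 77.0% and 79.6% in the Ly6Chi pair, 84.9% in Ly6Clo, and 80.9% and 79.9% in the knockout pair. Ly6Clo is the highest library, and the others lie between 77.0% and 80.9%. In U2af2 (chr7:5075228-5075467), the large subunit of the factor that binds 3′ splice sites, with a site 12 bases on, it was 25% in MDP, 25.6% and 25.7% in the cMoP pair, 24.1% and 29.8% in the Ly6Chi pair, 26.3% in Ly6Clo, and 28.2% and 26.2% in the knockout pair. Here the 2 Ly6Chi libraries enclose all others. Cbfb (chr8:105202548-105215903), the partner of the Runx transcription factors, had a site 31 bases on and a 5′ share of 62.1% in MDP, 61.4% and 65.8% in the cMoP pair, 58.0% and 59.9% in the Ly6Chi pair, 65.1% in Ly6Clo, and 62.8% and 68.2% in the knockout pair. Both Ly6Chi libraries of Cbfb lie below all others. Fubp1, a single-stranded DNA and RNA binding protein, with a site 9 bases on, spanned 70.8% to 75.8%.

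Kit (chr5:75639147-75640492, coding, intron 9 of 20), the stem cell factor receptor of progenitors, had a site 12 bases downstream. This pair of sites is known to give receptor forms with and without a short insert near the membrane. The boundary was crossed by 66 reads in MDP, 54 and 33 in cMoP, 1 in Ly6Clo, and 0 in each Ly6Chi and knockout library. The 5′ share was 42.3% in MDP and 39.4% and 35.9% in cMoP, so that both forms were present in each progenitor library. Kit itself stood at 60.5 TPM (a length-normalised share of all transcripts) in MDP, 49.95 and 30.99 in cMoP, and at most 1.04 in each other library, where the share cannot be given.

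Among introns in which a transcript ends, those with depth behind the boundary had widely spread 5′ shares, with quartiles of 18.8% and 83.3% in Ly6Chi replicate 1. The intron with the most reads, 7955, is listed under the readthrough gene RP23-145I16.3 (chr7:142371311-142376600, minus strand), and the exon over its boundary is the last exon of Ctsd, the lysosomal protease cathepsin D. Its boundary was crossed by 600 reads in MDP, 1409 and 1314 in the cMoP pair, 1600 and 1700 in the Ly6Chi pair, 1332 in Ly6Clo, and 3055 and 2132 in the knockout pair, with no spliced read. Dnajb11 (chr16:22871764-22878402), a chaperone of the endoplasmic reticulum, had 5837 reads and a 5′ share over 99% in every library. In these introns few or no reads were spliced from the listed 5′ site. Atp6ap1, an accessory subunit of the vacuolar proton pump, has both a transcript end and a downstream 5′ splice site, with 6325 boundary reads, 3 reads spliced from the listed site and 6229 into its 3′ site. Of the 228 introns with a transcript end, 90 hold the end of a protein-coding transcript, 10 of a transcript marked for nonsense-mediated decay, 124 of one marked as retained intron and 29 of a processed transcript, and an intron can hold several. Complete coding or decay-targeted ends lay in 86 of 1172 (7.34%), beside 2.34% of the other introns with at least 100 5′ reads.

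Rpl6 and Rpl21, 2 proteins of the large ribosomal subunit, also carry an annotated transcript end but no depth. Rpl6 (chr5:121207196-121208390) had a 5′ share of 12.6% in MDP, 9.39% and 8.70% in the cMoP pair, 9.06% and 9.51% in the Ly6Chi pair, 12.9% in Ly6Clo, and 9.34% and 9.44% in the knockout pair, and a depth share of 0.0146. Rpl21 (chr5:146834510-146834991) had a 5′ share of 4.91% to 6.4% and a depth share of 0.0204. Their values are those of the introns without an annotated exon, described next.

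The 675 introns without an annotated exon over the boundary are nearly all on the plus strand (669). Their 5′ share was low, with a median of 6.14%, and under 20% in 650 (96.3%), and their median depth share was 0.0283. Among the members with the most reads were Ldha (lactate dehydrogenase A, 4905 reads), Rplp0 (a ribosomal stalk protein, 3001), Pdia3 (a protein disulfide isomerase, 2773), Eef2 (a translation elongation factor, 2688) and Ctss (the protease cathepsin S, 2572). In Ldha (chr7:46854107-46854976) the 5′ share was 17.5% in MDP, 18.5% and 18.2% in the cMoP pair, 20.7% and 19.4% in the Ly6Chi pair, 19% in Ly6Clo, and 17.2% and 18.4% in the knockout pair. In Rplp0 (chr5:115562567-115563282) it was 1.94% in MDP, 2.64% and 2.52% in the cMoP pair, 2.64% and 2.54% in the Ly6Chi pair, 2.02% in Ly6Clo, and 2.21% and 2.51% in the knockout pair. In Ldha the libraries lie close together, and in Rplp0 MDP and Ly6Clo are the lowest. The median over these introns lay between 5.67% and 6.26% in all 8 libraries. Whether these reads come from RNA that continues into the intron or from read placement at the left boundary was not tested. Members with an annotated site 1 to 10 or 11 to 30 bases on also had low depth shares (medians 0.0232 and 0.0555). Of the 6 introns without an annotated exon on the minus strand, none had a depth share under 0.2.

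The read counts of the knockout libraries were not used to choose the introns, although their lists without warnings were, and most members kept the pattern there. Of 1118 members with at least 20 5′ reads in them, 1057 (94.5%, Wilson interval 93.1 to 95.7) again had at most 10% as many 3′ reads. Among all 9488 introns of that length without a warning and with as many 5′ reads, the share was 20.4%, and among the other introns with at least 100 5′ reads it was 4.42%. The 2 knockout libraries taken singly gave 799 of 840 and 828 of 876. On the minus strand 76 of 82 members met the limit. The count describes how far the measure repeats in other libraries and is not a test of the knockout.

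Changes of the 5′ share between groups were tested as boundary reads relative to spliced reads at the same 5′ site, across the 26927 introns with enough reads, of which 1054 are members. The other 118 members had too few reads in some library. With edgeR's quasi-likelihood test and Benjamini-Hochberg adjustment, 0 of 1054 members passed in any of the 4 comparisons: MDP to cMoP, cMoP to Ly6Chi, Ly6Chi to Ly6Clo, and Ly6Chi to the knockout. Over all introns tested 0%, 0.00371%, 0% and 0.0111% passed. At an unadjusted p under 0.05 stood 44, 30, 36 and 22 of the 1054 members. Beside them stood 2399, 3204, 988 and 2486 of all 26927 introns, so no comparison had a larger part of the members. DESeq2 called 0 members in each comparison. On simulated counts for knockout against Ly6Chi, 4 of 100 introns raised 4-fold and 17 of 100 lowered 4-fold were found, so that changes of that size are mostly missed by this design. MDP and Ly6Clo, with 1 library each, borrow their spread from the groups with 2.

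The introns tested shifted as a body between groups, while the members' medians stayed near 0. The median log2 change of all introns tested was −0.53 from MDP to cMoP, 0.57 from cMoP to Ly6Chi, 0.13 from Ly6Chi to Ly6Clo and −0.48 from Ly6Chi to the knockout. The medians of the members were 0.02, 0.03, −0.02 and −0.03. The rule caps 3′ boundary reads, so introns read at both boundaries are left out of the members. How far this choice sets the members apart from all introns was not tested. With TMM scaling, which brings the pooled median of all introns near 0, the members' medians became 0.58, −0.57, −0.23 and 0.46. Their direction as a group thus depends on the scaling. The strands still differed there among all introns, with plus-strand medians of 0.13, −0.14, −0.13 and 0.14. On the minus strand they were −0.39, 0.32, 0.04 and −0.27. Most members are on the plus strand, and their signs are those of all plus-strand introns. The libraries differ in unspliced RNA. At minus-strand 5′ ends the median depth per 100 spliced reads was 0.635 in MDP, 0.545 and 0.138 in the cMoP pair, 0.538 and 0.587 in the Ly6Chi pair, 0.658 in Ly6Clo, and 0.325 and 0.365 in the knockout pair. The part this difference plays in the results below was not tested.

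The introns with a transcript end and depth behind it (depth share of at least 0.5) had higher 5′ shares in both cMoP libraries and in the knockout than in Ly6Chi in the median, opposite to the median of all introns. Their median 5′ share was 43.2% in MDP, 47.9% and 64.0% in the cMoP pair, 38.5% and 39.1% in the Ly6Chi pair, 36.1% in Ly6Clo, and 56.7% and 41.0% in the knockout pair. The median log2 change over the 90 tested was −0.64 from cMoP to Ly6Chi and 0.51 from Ly6Chi to the knockout, and −1.24 and 1.01 with TMM scaling, the same directions. A 5′ share is computed within a library and carries the library-wide shift given above, so each count is set beside that of all introns. All introns include those read at both boundaries, which the rule leaves out of the members, so the 2 sets differ by choice. From cMoP to Ly6Chi, both Ly6Chi libraries lay below both cMoP libraries in 46 of these 90 (51.1%) and above in 8 (8.89%), whereas over all introns tested 6.54% lay below and 40.8% above. In the knockout both libraries lay above both Ly6Chi libraries in 38 of 90 (42.2%) and below in 13 (14.4%), beside 7.80% above and 43.0% below over all introns. These 2 comparisons share the Ly6Chi libraries. This group of introns was set apart after values were seen, so the counts are a description.

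Leaving out a library sets 1 library against 2, which lie apart more readily, so the counts that follow cannot be set against those above. The gap between above and below was smallest without knockout replicate 1, whose median 5′ share was 56.7%, against 41.0% in replicate 2. Without cMoP replicate 1 the Ly6Chi libraries lay below cMoP in 58 of the 90 introns and above in 16, where 11.6% of all introns lay below and 72.4% above. Without cMoP replicate 2 they lay below in 50 and above in 17, where 24.3% of all introns lay below and 46.3% above. Without knockout replicate 1 the knockout lay above Ly6Chi in 40 and below in 26, where 19.3% of all introns lay above and 54.2% below. Without knockout replicate 2 it lay above in 60 and below in 14, where 16.3% of all introns lay above and 61.6% below.

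**Figure D4:**
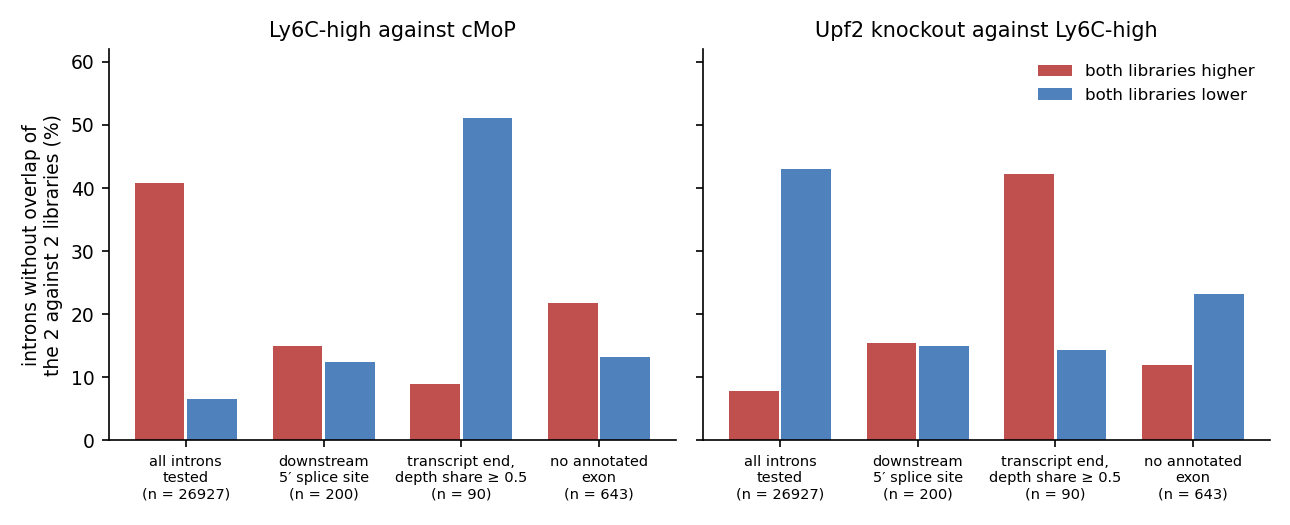
Percentage of introns whose 5′ share in both libraries of the first group lay above (red) or below (blue) both libraries of the second, for Ly6Chi against cMoP (left) and knockout against Ly6Chi (right), in all introns tested and in 3 kinds of members. Introns with a transcript end and depth go the other way from all introns in both panels (51.1% lower against 6.54%, and 42.2% higher against 7.80%). The other members lie between. All introns include those read at both boundaries, which the rule leaves out of the members.

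The other members were spread over both directions. Of the 200 tested with a downstream 5′ splice site, 30 lay higher and 25 lower in Ly6Chi than in cMoP, and 31 higher and 30 lower in the knockout than in Ly6Chi. Of the 643 tested without an annotated exon, 140 (21.8%) lay higher and 85 (13.2%) lower in Ly6Chi, and 77 (12%) higher and 149 (23.2%) lower in the knockout.

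After TMM scaling, 16 members in 14 genes passed edgeR's quasi-likelihood test as lower in Ly6Chi than in cMoP and 0 as higher, where 0.193% of all introns passed as lower and 0.111% as higher, and 14 of the 16 have a transcript end alone and depth behind it. In the knockout 3 members passed as higher and 0 as lower, where 0.13% of all introns passed as higher and 0.0557% as lower. In the other comparisons 0 members passed, where 0% of all introns did from MDP to cMoP and 0.0186% from Ly6Chi to Ly6Clo (0.00743% higher, 0.0111% lower). Leaving out a library leaves 1 in its group, so only median log2 changes with TMM scaling are given for those fits. From cMoP to Ly6Chi the members' median was −0.94 and −0.27 without cMoP replicates 1 and 2. All introns stood at 0.25 and −0.02 there. Without Ly6Chi replicates 1 and 2 the members' median was −0.57 and −0.63, and that of all introns 0.004 and −0.04. In the knockout the members' median lay between 0.41 and 0.49 whichever library was left out, and that of all introns between −0.11 and 0.05. With 2 libraries a group, single libraries decide how many members pass, and the counts above rest on them.

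Zfp207 (ENSMUSG00000017421, chr11:80395876-80398415), a zinc finger protein of mitotic spindle assembly, had the smallest p of all members from MDP to cMoP, from cMoP to Ly6Chi and in the knockout. Its 5′ share was 87.5% in MDP, 96.9% and 99.3% in the cMoP pair, 81.9% and 89.1% in the Ly6Chi pair, 71.7% in Ly6Clo, and 97.5% and 95.6% in the knockout pair. Ly6Clo is lowest, and cMoP and the knockout both lie above Ly6Chi without overlap. Reads spliced from this site were few: 16 and 5 in cMoP, 60 and 33 in Ly6Chi, and 14 and 20 in the knockout. The log2 change from cMoP to Ly6Chi was −3.28 ± 0.66 (SE, edgeR's quasi-likelihood test, adjusted p = 0.354), and −3.88 ± 0.55 with TMM scaling (adjusted p = 0.000198), with a range of 9.18e-10 to 0.898 over the 20 settings tried. In the knockout it was 2.26 ± 0.63 (adjusted p = 0.491), and 2.75 ± 0.52 with TMM scaling (adjusted p = 0.00942), with a range of 6.97e-05 to 1. The gene's total level moved little, 171 and 167 TPM in cMoP, 176 and 150 in Ly6Chi, and 141 and 172 in the knockout.

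Plin2 (chr4:86648580-86657113, minus strand), the coat protein of lipid droplets, had a 5′ share of 85.6% in MDP, 85% and 92.6% in the cMoP pair, 61.9% and 63.2% in the Ly6Chi pair, 63.8% in Ly6Clo, and 72.3% and 71.0% in the knockout pair. MDP and cMoP are high, Ly6Chi and Ly6Clo low, and the knockout lies between them. The log2 change from cMoP to Ly6Chi was −2.30 ± 0.48 (edgeR's quasi-likelihood test, adjusted p = 0.354), and −2.90 ± 0.42 with TMM scaling (adjusted p = 0.000219), with a range of 5.18e-08 to 0.898. The Plin2 gene rose in the same step, from 70.7 and 69.4 TPM to 285 and 210 (limma, log2 1.79 ± 0.21, adjusted p = 0.00162).

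Tor1aip2 (chr1:156051624-156059410), a nuclear envelope and endoplasmic reticulum protein that activates torsin, had a 5′ share of 83.9% in MDP, 89.1% and 95.7% in the cMoP pair, 66.8% and 71.4% in the Ly6Chi pair, 75% in Ly6Clo, and 90.5% and 80.0% in the knockout pair. Both Ly6Chi libraries are the lowest of the 8. The change from cMoP to Ly6Chi was −2.45 ± 0.58 (edgeR's quasi-likelihood test, adjusted p = 0.367), and −3.01 ± 0.51 with TMM scaling (adjusted p = 0.00166), with a range of 2.54e-06 to 0.898. Ppp2r5c (chr12:110570769-110574744), a regulatory subunit of protein phosphatase 2A, had 53.0% in MDP, 64.3% and 78.7% in the cMoP pair, 38.8% and 41.2% in the Ly6Chi pair, 24.3% in Ly6Clo, and 57.8% and 43.7% in the knockout pair. Its change was −1.95 ± 0.49 (adjusted p = 0.368, and 0.00161 with TMM scaling), with a range of 2.54e-06 to 0.898. A second listed intron of Ppp2r5c shares this 5′ site and its reads, and counts as the same site.

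Mtor (chr4:148454753-148455984), the growth-controlling kinase, and Kmt2e (chr5:23493508-23495985), a chromatin protein, were the others called higher in the knockout with TMM scaling. In Mtor 7 reads crossed the boundary in MDP, 18 and 36 in the cMoP pair, 18 and 24 in the Ly6Chi pair, 17 in Ly6Clo, and 40 and 28 in the knockout pair. Its 5′ share was 26.5% and 33.3% in Ly6Chi and 72.7% and 66.7% in the knockout, but also 24.0% and 65.5% in the 2 cMoP libraries. The change in the knockout was 2.43 ± 0.75 (edgeR's quasi-likelihood test, adjusted p = 0.491), and 2.93 ± 0.67 with TMM scaling (adjusted p = 0.0485), with a range of 0.000948 to 1. The Kmt2e intron lies wholly inside an annotated exon, and its 5′ share was 23.5% in MDP, 37.5% and 55.9% in the cMoP pair, 15% and 24.4% in the Ly6Chi pair, 13.6% in Ly6Clo, and 55.0% and 36% in the knockout pair. Its change in the knockout was 1.76 ± 0.55 (adjusted p = 0.491, and 0.0259 with TMM scaling), with a range of 0.0011 to 1.

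An annotated coding or decay-targeted transcript ends inside each of 14 introns, a group picked after its values were seen. In this group boundary reads with depth behind them stood beside reads spliced from the same 5′ site. Use of the inner end itself was not measured. Both cMoP libraries lay above both Ly6Chi libraries in 12 of them, and both knockout libraries above both Ly6Chi libraries in 8, where 6.54% and 7.80% of all introns did. Since the group was picked, nothing is read from these counts. Ly6Clo was the lowest of the 8 libraries in 6 and cMoP replicate 2 the highest in 9, with no such count made over all introns. Ifnar2 (chr16:91393914-91399217), a chain of the type I interferon receptor known also in a soluble form, had 55.9% in MDP, 65.2% and 75% in the cMoP pair, 60.7% and 60.4% in the Ly6Chi pair, 72.3% in Ly6Clo, and 75.1% and 65.2% in the knockout pair. In Ifnar2 MDP is lowest and Ly6Chi next. Zc3hav1 (chr6:38312485-38316320), the antiviral zinc finger protein known in a long and a short form, had 46.8% in MDP, 45.8% and 39.6% in the cMoP pair, 42.2% and 49.3% in the Ly6Chi pair, 46.3% in Ly6Clo, and 66.7% and 45.3% in the knockout pair. Apart from knockout replicate 1, the libraries of Zc3hav1 overlap. Dnajb6 (chr5:29766396-29781129), a co-chaperone with a long nuclear and a short form, had 65.1% in MDP, 76.9% and 80.1% in the cMoP pair, 72.3% and 71.1% in the Ly6Chi pair, 51.3% in Ly6Clo, and 75.3% and 71.1% in the knockout pair. Ly6Clo of Dnajb6 lies well below the others.

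Among the rest of these 14 introns, Sp100, a nuclear body protein, had 22.8% and 36.3% in cMoP and 16.2% and 15.6% in Ly6Chi. Smarcc1, a core subunit of the BAF chromatin remodeller, had 27.7% and 40.3% in cMoP, 18% and 19.8% in Ly6Chi, and 34.8% and 22.3% in the knockout. Trmt2b, a tRNA methyltransferase, had 55.0% and 68.5% in the cMoP pair, 47.5% and 44.1% in the Ly6Chi pair, 28.0% in Ly6Clo, and 69.0% and 59.8% in the knockout pair. In these 3 both cMoP and both knockout libraries lie above Ly6Chi. Mkrn1, a ubiquitin ligase, Patz1, a transcription factor, and Cdk12, the kinase of elongating RNA polymerase II, had higher values in both cMoP libraries than in Ly6Chi, while their knockout libraries overlapped Ly6Chi. 1810013L24Rik ran the other way in the knockout, with 33.2% and 37.3% there against 43.0% and 45.3% in Ly6Chi.

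**Figure D5:**
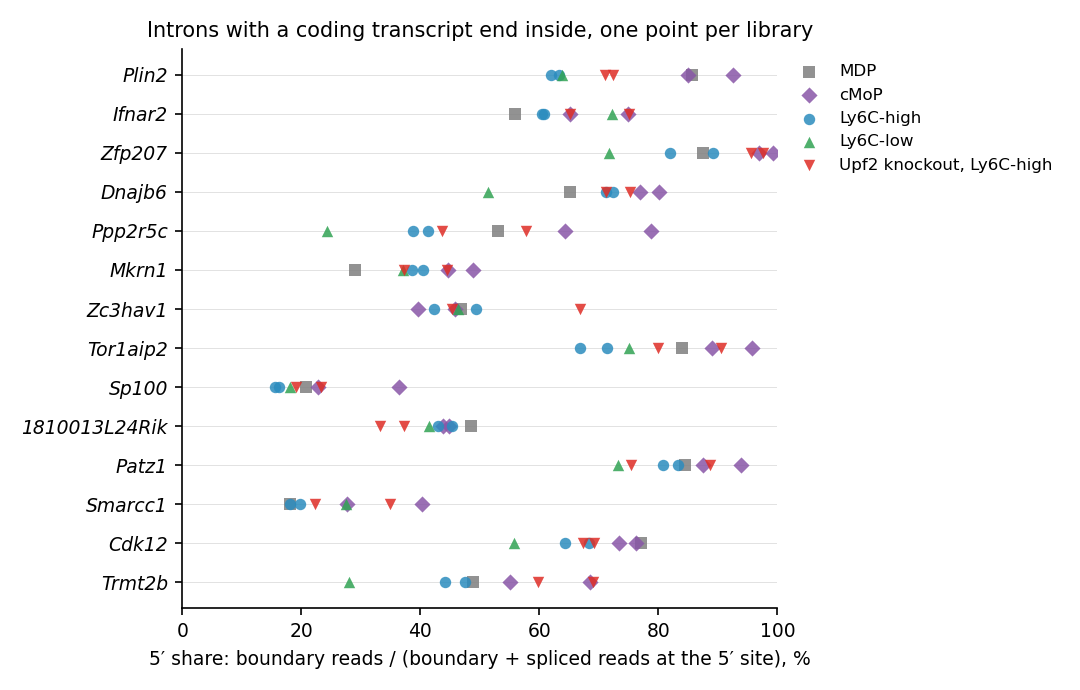
The 5′ share in percent (horizontal axis) of 14 introns, 1 point per library, marked by group. In each an annotated coding or decay-targeted transcript ends, and reads are also spliced from the 5′ site. In 12 of the 14 both cMoP points lie right of both Ly6Chi points, as in 6.54% of all introns tested. Ly6Clo is the leftmost point in 6, with no such count over all introns. The 14 were picked after their values were seen, so nothing is read from these counts.

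From MDP to cMoP the members of smallest p, beside Zfp207, were Rbm3 (chrX:8141209-8142826, minus strand), an RNA-binding protein induced by cold, and Zc3h15. The 5′ share of Rbm3 was 92.5% in MDP, 99.2% and 98.2% in the cMoP pair, 97.5% and 97.7% in the Ly6Chi pair, 90.3% in Ly6Clo, and 98.8% and 98.5% in the knockout pair, with MDP and Ly6Clo low. Rbm3 had only 5 to 21 reads spliced from this site in a library. Its change from MDP was 2.67 ± 0.70 (edgeR's quasi-likelihood test, adjusted p = 0.556). From Ly6Chi to Ly6Clo the smallest p fell on Ctss, Vdac1 (a channel of the outer mitochondrial membrane) and Exoc6 (a subunit of the exocyst). The Ctss intron (chr3:95543163-95545332) had a 5′ share of 3.03% and 2.52% in Ly6Chi and 0.981% in Ly6Clo, a change of −1.52 ± 0.45 (adjusted p = 1). Another member of Ctss, at chr3:95546962-95550052, had 5.47% and 4.85% in Ly6Chi and 5.45% in Ly6Clo. The Vdac1 and Exoc6 values in Ly6Clo rest on 5 and 1 boundary reads.

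The genes that hold these introns differed most often in expression between cMoP and Ly6Chi, as all genes did. Of 837 host genes tested with limma on log2(TPM + 1), 24 passed from MDP to cMoP (19 higher, 5 lower), where 3.87% of all genes passed (1.35% higher, 2.52% lower). From cMoP to Ly6Chi 529 passed (312 higher, 217 lower), where 55.5% of all genes did (32.3% higher, 23.3% lower), and with median centring the split was 255 higher and 289 lower. From Ly6Chi to Ly6Clo 106 passed (35 higher, 71 lower), where 13% of all genes did (5.9% higher, 7.12% lower). In the knockout 0 passed, where 0.00762% of all genes did. An unadjusted p under 0.05 was found there in 130 of the 837 host genes and 1910 of all 13126 genes. The median log2 change of all genes from cMoP to Ly6Chi was 0.19, and −0.14 with median centring, and the rises named below all exceed the gap between these medians. Fmnl1 rose from 120 and 95.2 TPM in cMoP to 517 and 475 in Ly6Chi (limma, log2 2.20 ± 0.14, adjusted p = 0.000291). Rpl26 fell in that step, from 3679 and 3719 TPM to 2422 and 2568 (log2 −0.57 ± 0.12, adjusted p = 0.00985). Pabpc4, a cytoplasmic poly(A)-binding protein, fell from 126 and 188 TPM to 25.6 and 23.3 (log2 −2.61 ± 0.21, adjusted p = 0.000527).

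The factors that act at these boundaries were read from 2 lists. Of 28 cleavage and polyadenylation genes, 0 passed limma's test from MDP to cMoP, 5 rose and 5 fell from cMoP to Ly6Chi, 0 rose and 2 fell from Ly6Chi to Ly6Clo, and 0 passed in the knockout. From cMoP to Ly6Chi 32.3% of all genes rose and 23.3% fell, so 5 of 28 each way is no more than among all genes. Pcf11, a termination factor that favours early sites, rose by 1.05 ± 0.31 on the log2 scale (adjusted p = 0.0308), from 35.6 and 18.3 TPM in cMoP to 55.2 and 52.8 in Ly6Chi. It stood at 30.0 and 36.3 TPM in the knockout. The poly(A) polymerase gene Papolg, Xrn2 (the exonuclease of termination), Cdk12 and Cdk13 also rose. Cstf2, the subunit that binds downstream of the cleavage site, fell from 34.4 and 32.0 TPM to 19.4 and 17 (−0.83 ± 0.16, adjusted p = 0.00842), and Cpsf1, Cstf3, Nudt21 and Pabpn1 fell as well. From Ly6Chi to Ly6Clo Nudt21, a subunit of cleavage factor I, fell by 0.89 on the log2 scale (adjusted p = 0.0310), and Ppp1ca, a catalytic subunit of protein phosphatase 1, fell by 0.48 (adjusted p = 0.0492).

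Of 15 genes for recognition of the 5′ splice site, 4 fell from cMoP to Ly6Chi and 0 rose: Snrpa and Snrpc (proteins of U1 snRNP), Luc7l and Prpf40b (U1-associated factors), a share near the 23.3% of all genes that fell. Snrpa went from 147 and 180 TPM to 78.7 and 82.3 (limma, log2 −1.01 ± 0.13, adjusted p = 0.00233). From Ly6Chi to Ly6Clo Prpf40b rose and Snrpa fell, and 0 passed from MDP to cMoP and in the knockout. Of the cleavage genes 10 hold member introns themselves, 20 introns, of which 13 have no annotated exon over the boundary. Of the 5′ splice site genes Luc7l2 and Prpf8 do, with 8 introns, all without an annotated exon. Papola, the canonical poly(A) polymerase, holds both kinds, and at chr12:105834758-105836764 its boundary was crossed by 395 to 658 reads in each library with 0 spliced from the listed site.

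At the limits of the rule, Ubxn11 and Cpsf4 were among the introns last inside by ratio, with 100 and 10 and with 120 and 12 reads at the 5′ and 3′ boundary, and Cct7 (229 and 23) and Rplp2 (3290 and 331) the first outside. By count, Fuca2 and Ccdc25 were inside with 100 5′ reads, as 8 members were, and Parp11 and Bnip2 outside with 99, as 9 introns were.

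Of the series as a whole, each library had 28925018 to 37833159 spliced reads and 2302466 to 3353268 boundary reads over the introns listed. Introns listed number 204370 in the knockout libraries and 205984 in the others, and those without a warning 166495 and 203016. The listing thus differs with genotype. Its part in the knockout comparisons cannot be told apart from that of the genotype, also for the shared introns used here. Upf2 stood at 18.2 to 23.1 TPM in all 8 libraries. Its spliced reads from exon 2 to exon 3 numbered 59 in MDP, 38 and 16 in the cMoP pair, 41 and 45 in the Ly6Chi pair, 39 in Ly6Clo, and 10 and 13 in the knockout pair, so the knockout pair is the lowest at this junction, with cMoP replicate 2 close above, while the total level is not lower. Which exon was removed is not stated in the labels. All 5 cMoP marker genes stood at 1 TPM or more in every library, summing to 237 to 25943 TPM. Of other cells, the 5 T and NK cell markers summed to at most 2.23 TPM and the 8 neutrophil markers to 293 to 4875. Macrophage markers summed to 2.91 to 582 TPM, erythroid to 2.05 to 107 and B cell to 266 to 774, and these 3 lists and the neutrophil list were highest in Ly6Clo. Dendritic markers summed to 1.34 to 233 TPM, highest in MDP. Their part in the Ly6Clo and MDP values was not tested.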

How the data were processed

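The labels describe stranded poly(A) libraries read as 100 bp pairs, and the submitters' processing notes name FastQC, Trimmomatic, STAR 2.5.2a, RSEM, mm10 and hg38. The program that made the intron tables is not given in the sources used here. Per the deposited intron tables, boundary and spliced reads are counts, the intron depth is a coverage signal, and the intron retention ratio is a fraction (not used for a result). The authors' expression table is named for FPKM, but each deposited column has the fixed sum of TPM, so it was treated as TPM.

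Boundary counts relative to spliced counts at the same 5′ site were tested with edgeR 4.0.16 in 1 fit over all 8 libraries with 3 residual degrees of freedom, for introns with at least 20 reads in every library. Expression was tested with limma 3.58.1 on log2(TPM + 1), for genes of at least 1 TPM in 2 libraries. p-values were Benjamini-Hochberg adjusted over all features, with a threshold of 0.05. Both tests were tried on simulated data. Annotation and sequences came from GENCODE M21 (GRCm38). Intervals cover counting error only.

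Named members were those with the most reads overall and by annotation, the smallest p in each comparison, those called after TMM scaling and genes of the lists. The members and lists were chosen with earlier results of these data known. The depth share limits, the 14 introns with a coding or decay-targeted end and spliced reads and the pairs of used 5′ sites were chosen after values were seen. Same-numbered libraries did not deviate together (r of −0.005, −0.088 and −0.034 over introns), so replicate numbers were not used as pairs. Some members are not reported here.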

Additional observations from a re-analysis of the deposited data

How the results depend on the processing

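The replicate block left 0 members called in each of the 4 comparisons, and TMM scaling with the replicate block gave 2, 23 and 9 members (cMoP with MDP, Ly6Chi with cMoP, knockout with Ly6Chi). Over all 26927 introns 11, 130 and 95 passed there. TMM scaling alone gave 16 members for Ly6Chi with cMoP and 3 for the knockout, where 82 and 50 of all introns passed. No filter on low counts gave 2 for Ly6Chi with cMoP, where 42 of 81123 introns passed. Fitting only the 2 groups compared gave 29 for Ly6Clo and 13 for the knockout. Both are a smaller part of the members than of all introns, with 13 of 1119 against 1081 of 19505 in the knockout. Leaving out 1 library gave 0 to 43 members for cMoP with MDP, 0 to 42 for Ly6Chi with cMoP, 0 to 1 for Ly6Clo and 0 to 7 for the knockout, the highest each without cMoP replicate 1. With TMM scaling the ranges were 0 to 118, 1 to 108, 0 to 2 and 0 to 18, again highest without cMoP replicate 1. These include 3 for cMoP with MDP without either knockout replicate, 22 and 21 for Ly6Chi with cMoP without knockout replicates 1 and 2, and 14 and 12 for the knockout without cMoP replicate 2 and knockout replicate 2. Host genes for cMoP with MDP numbered 40 without a filter, 9 with the replicate block, 0 with only those 2 groups, and 8 to 363 (without cMoP replicate 1) leaving out a library. Those for Ly6Chi with cMoP ranged from 288 (without Ly6Chi replicate 1) to 621 (without cMoP replicate 1). Those for Ly6Clo numbered 58 with the replicate block, 228 with only those 2 groups, and 44 (without Ly6Chi replicate 1) to 251 (without cMoP replicate 1). The knockout gave 1 host gene without a filter. A minimum of 200 reads left 662 members. Of the 483 members of the main set with a downstream site or transcript end, 76 are on the minus strand. Of the alternatives for single named members, 199 kept their side of the threshold and 86 passed it, with no change of direction among called values. The search for poly(A) hexamers in the first 500 intron bases and its alternatives were not run, since no genome sequence was used here. Without cMoP replicate 1, a smaller part of the members than of all introns was called, and with TMM scaling a larger part. The cause of the differences between settings was not tested. Depth limits the low 5′ shares, several of which rest on under 10 reads in a library. It also limits high ones such as those of Zfp207 and Rbm3, which rest on few spliced reads.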
